A study of Drosophila melanogaster with 6 samples.

Results

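Intermediate cyst cells (ICCs) are somatic cells of the Drosophila testis that stand between the early and the late cyst cells of the cyst lineage. They were taken as the cells that the authors' deposited table of cells names intermediate cyst cells, and they made up 3509 of 26549 cells in the series, or 13.2%. The 3 libraries of chinmoST testes held 855 ICCs at 3–5 d, 422 at 6–8 d and 315 at 9–11 d. The 3 wild-type libraries held 839, 531 and 547 at the same ages.

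The testes came from adult males of a strain labelled ChinmoST, whose genotype field also gives a chromosome with Sod1[X-39] and e[1], held over the balancer TM3 with its markers Sb[1] and Ser[1], and from adult males of the wild-type strain Oregon R, so the allele and the strain background cannot be told apart. Each library was made from pooled testes of 1 genotype at 1 age by droplet-based (10x) single-cell RNA sequencing, and the 3 ages are the only replicates of a genotype. The study asked how somatic cells change in the mutant as the testis ages. A unique molecular identifier (UMI) marks 1 captured RNA molecule, and UMIs were summed over the ICCs of each library and scaled to the same total in every library (CPM).

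Cyst cells are the somatic partners of the male germline. A pair of them encloses each group of dividing germ cells, stops dividing and goes on to differentiate along with the cyst it surrounds, and signals between cyst cells and germ cells are needed for the germ cells to mature. Chinmo, a transcriptional regulator of the BTB zinc-finger family, keeps the male identity of the cyst stem cells (CySCs) from which cyst cells derive. Eya and So are a transcriptional coactivator and its homeodomain partner that are used as markers of cyst cells past the stem cell stage.

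The defining markers were present in the ICCs, although none of them was found in ICCs alone. eya measured 23.5, 98.0 and 84.4 CPM in chinmoST ICCs, against 18.5, 89.3 and 103.4 CPM in wild-type ICCs. so measured 8.13, 28.3 and 16.3 CPM in chinmoST ICCs, against 10.7, 26.9 and 34.1 CPM in wild-type ICCs. Both were lower at 3–5 d than later in each genotype, and neither separated the genotypes (log2 fold change 0.04, adjusted p = 0.904 for eya in the fit with age described below, and log2 fold change -0.43, adjusted p = 0.263 for so). Per cell type, eya averaged 26.2 CPM in chinmoST late cyst cells and 35.8 CPM in wild-type late cyst cells, and 181 and 253 CPM in hub cells. Pooled over libraries, eya measured 61.0 and 63.1 CPM in CySCs of chinmoST and wild-type testes and 84.6 and 87.5 CPM in early cyst cells. The pooled ICC levels were 62.2 and 65.0 CPM, so eya did not set ICCs apart from CySCs. so averaged 20.7 and 24.7 CPM in late cyst cells of chinmoST and wild-type testes, within the range of the ICC libraries. The authors named the ICCs from Pdcd4, sog and Six4. Six4, a homeodomain factor, averaged 148 ± 28.0 CPM in chinmoST ICCs and 152 ± 21.6 CPM in wild-type ICCs (mean ± SD, n = 3 libraries), but 2.86 and 3.17 CPM in late cyst cells and 212 and 199 CPM in early cyst cells. Pdcd4, a regulator of translation, averaged 584 ± 176 CPM in chinmoST ICCs and 651 ± 247 CPM in wild-type ICCs, against 143 and 116 CPM in late and 1195 and 1169.9 CPM in early cyst cells. sog, a secreted BMP inhibitor, averaged 234 ± 59.9 and 246 ± 57.8 CPM in ICCs of chinmoST and wild-type testes, but only 3.83 and 6.18 CPM in their early cyst cells. Six4 and Pdcd4 were thus higher in early cyst cells than in ICCs and lower in late cyst cells, sog was lower in both, and all 3 genes were higher in hub cells. Hemocyte markers summed to at most 1.92 CPM and muscle markers to at most 4.19 CPM in every library. Early germline markers summed to 3.95, 14.4 and 33.6 CPM in chinmoST ICCs, against 5.08, 2.33 and 1.92 CPM in wild-type ICCs, and terminal epithelium markers to 46.2, 19.2 and 21.9 against 38.1, 20.8 and 18.0 CPM. Hub markers summed to 43.2, 67.4 and 83.0 CPM in chinmoST ICCs, against 27.6, 29.5 and 17.8 CPM in wild-type ICCs, with Fas3 the larger part. Pigment cell markers summed to 229, 178 and 176 CPM in chinmoST ICCs, against 488, 397 and 443 CPM in wild-type ICCs, nearly all of it glob1. Both of these sums separated the genotypes without overlap. The part of other cell types in the results was not tested.

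Counted without late cyst cells, ICCs took a smaller part of the cyst lineage in the chinmoST libraries, and they were shallower. Of hub cells, CySCs, early cyst cells and ICCs together, ICCs were 88.0, 86.1 and 83.8% in the chinmoST libraries from 3–5 d to 9–11 d, against 89.6, 94.1 and 92.6% in the wild-type libraries. The groups did not overlap (86.0 ± 2.10% against 92.1 ± 2.29%, SD, n = 3, exact two-sided permutation p = 0.1, which is the smallest p that 3 against 3 libraries allow). Of all somatic cells, the shares were 19.7, 32.2 and 36.5% in chinmoST and 29.9, 31.3 and 39.6% in wild-type, which overlap (exact permutation p = 0.6). These are shares, and a change in another cell type moves them too. CySCs numbered 26, 33 and 31 in chinmoST and 9, 4 and 7 in wild-type. Late cyst cells, which are not in the first share, numbered 2233, 434 and 206 in chinmoST and 1226, 798 and 514 in wild-type.

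The median ICC carried 2207, 3277.5 and 2309 UMIs in chinmoST testes, against 3907, 4633 and 3911 in wild-type testes (exact permutation p = 0.1). Mitochondrial UMIs were 2.70, 2.77 and 3.29% of the median chinmoST ICC and 1.91, 2.26 and 2.69% of the median wild-type ICC. The smallest cell kept differed between libraries. With a common minimum of 2105 UMIs in every library the difference in median UMIs turned to 604 more in chinmoST ICCs. A small number of deep cells carried most of the molecules. ICCs with over 3 times the median UMIs of their library numbered 167, 100 and 73 in chinmoST and held 63.8, 69.5 and 71.6% of ICC UMIs. In wild-type testes 125, 88 and 93 such cells held 49.2, 53.0 and 56.5%. No doublet caller was run, and every comparison of genes below was also made without these deep cells.

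**Figure D1:**
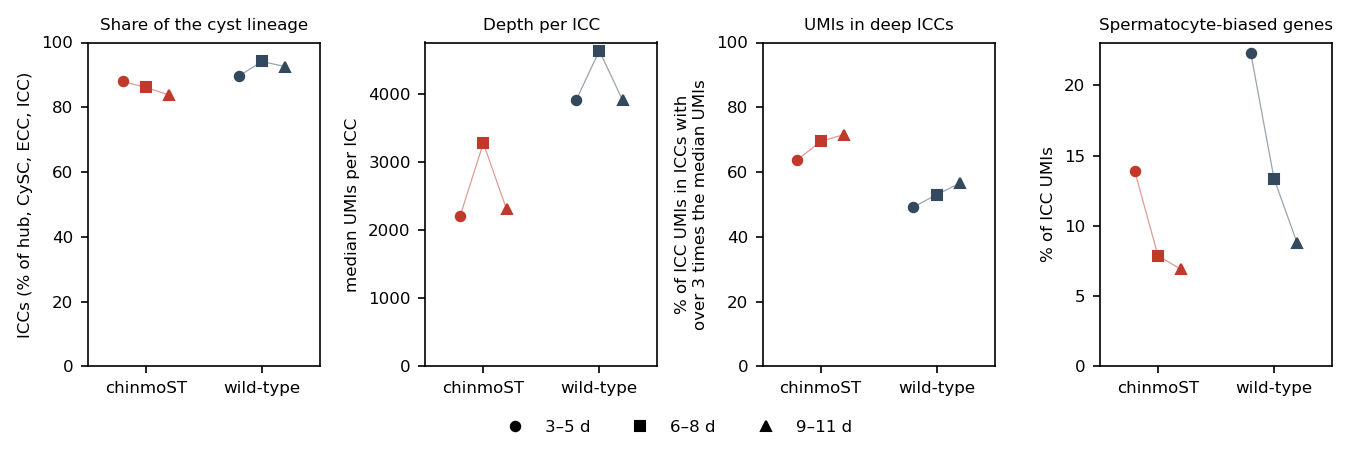
Measures of the ICCs in each library, with chinmoST (red) left of wild-type (dark blue) and 1 symbol per age: the ICC share of hub cells, CySCs, early cyst cells and ICCs, the median UMIs per ICC, the share of ICC UMIs in ICCs with over 3 times the median, and the share of ICC UMIs from the 1353 genes that are over 4-fold higher in late spermatocytes than in late cyst cells and reach 100 CPM there. The chinmoST libraries lie below the wild-type ones in lineage share and in depth and above them in the deep-cell share, and in the spermatocyte-biased share the chinmoST library of each age lies below the wild-type library of that age.

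The authors' clustering divided the ICCs mainly between clusters 16 and 17, which held 95.6% of them, and these differed in named genes whatever the genotype. As the cells were clustered on these genes, the values are a description. Six4 measured 308, 204 and 237 CPM in chinmoST cells of cluster 16 and 239, 299 and 289 CPM in wild-type cells of cluster 16, but at most 7.43 CPM in any library of cluster 17. Cluster 16 was also the higher in Ilp6, an insulin-like peptide, in Rac2, a small GTPase of the actin cytoskeleton, and in scyl, a negative regulator of TOR signalling (log2 of cluster 16 over 17 2.46, 2.61 and 2.43 over the 6 libraries). Cluster 17 was the higher in alphaTub85E, a tubulin, with 6223, 5405 and 5382 CPM in chinmoST and 3696, 4294 and 4398 CPM in wild-type cells, against 724, 721 and 549 and 846, 1010.1 and 1052 CPM in cluster 16. It was also the higher in sog, in the glutathione transferase GstE2, in the transferrin Tsf1 and in Idgf2, a secreted growth factor of the chitinase family. Some of the genes that define cluster 16, Npc2a and CtsL1 among them, also differed between the genotypes, so the sizes of the clusters were not compared. Another 156 ICCs lay in 5 other clusters.

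By rank correlation, the summed profile of ICCs was closest to that of late cyst cells. Over 9184 genes the rank correlation of ICC with late cyst cell levels within a library was 0.868 to 0.926, against 0.745 to 0.861 with early cyst cells, 0.649 to 0.787 with hub cells and 0.621 to 0.724 with CySCs. These sums come from the same libraries, and the genes are not independent replicates. The sums also differ in size, with 206 to 2233 late cyst cells per library. Early cyst cells numbered only 16 to 60, hub cells 10 to 31 and CySCs 4 to 33, and the part of this in the ordering was not tested. In wild-type testes few abundant genes were highest in ICCs among these types. Spn43Aa, a serine protease inhibitor, was 2.13 times and GstE2 2.07 times the highest of hub cells, CySCs, early and late cyst cells. The other 13 of the 15 leading genes, with Mst77F, a sperm chromatin protein, at 2.52 times, were all higher in late spermatocytes than in late cyst cells.

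The comparison of chinmoST with wild-type ICCs found 6 genes that rose and 1 that fell, taking the ages as replicates. CNMa, which encodes the neuropeptide CNMamide, measured 51.3, 133 and 145 CPM in chinmoST ICCs, against 0.339, 0.636 and 1.20 CPM in wild-type ICCs. CG15422, for which no role is stated here, measured 297, 238 and 409 CPM in chinmoST ICCs, against 11.2, 4.03 and 4.32 CPM in wild-type ICCs. Both were near the floor of detection in every wild-type library, where CNMa had 2, 3 and 5 UMIs. In the dm6 assembly CNMa lies on chromosome 3L from 1850915 to 1855591 and CG15422 on chromosome 2L from 4004984 to 4005670. The other 4 genes that rose were present in both genotypes. CtsL1, the lysosomal protease cathepsin L, measured 2684, 3604 and 2573 CPM in chinmoST ICCs, against 697, 543 and 566 CPM in wild-type ICCs. Npc2a, a sterol carrier of the lysosome, measured 670.0, 959 and 913 CPM in chinmoST ICCs, against 168, 144 and 159 CPM in wild-type ICCs. crq (croquemort), a scavenger receptor of the CD36 family, measured 151, 206 and 194 CPM in chinmoST ICCs, against 36.1, 31.8 and 36.7 CPM in wild-type ICCs. The chinmoST libraries lay above all wild-type libraries for each of these genes. Of all 9184 genes tested, 1424 (15.5%) did not overlap between the genotypes, in either direction. CG34330 measured 278, 321 and 275 CPM in chinmoST ICCs, against 86.7, 58.7 and 71.5 CPM in wild-type ICCs. CG13996 went the other way, at 5.34, 3.61 and 2.33 CPM in chinmoST ICCs, against 39.8, 42.4 and 36.9 CPM in wild-type ICCs. Of 9184 genes tested these 7 were called, or 0.0762% (edgeR quasi-likelihood test with Benjamini-Hochberg adjustment, adjusted p = 0.0301 for CNMa, CG15422, CtsL1, Npc2a and crq and 0.0464 for CG34330 and CG13996), and 842 had an unadjusted p below 0.05. DESeq2 called 242, with all 7 among them. The edgeR count was 0 without the chinmoST library of 6–8 d or of 9–11 d, or without the wild-type library of 6–8 d or of 9–11 d, 14 without the chinmoST and 22 without the wild-type library of 3–5 d, and 0 when the deep ICCs were left out, where 526 genes had an unadjusted p below 0.05. In bulk sums of this kind, fewer cells that express a gene and less RNA per cell cannot be told apart.

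**Figure D2:**
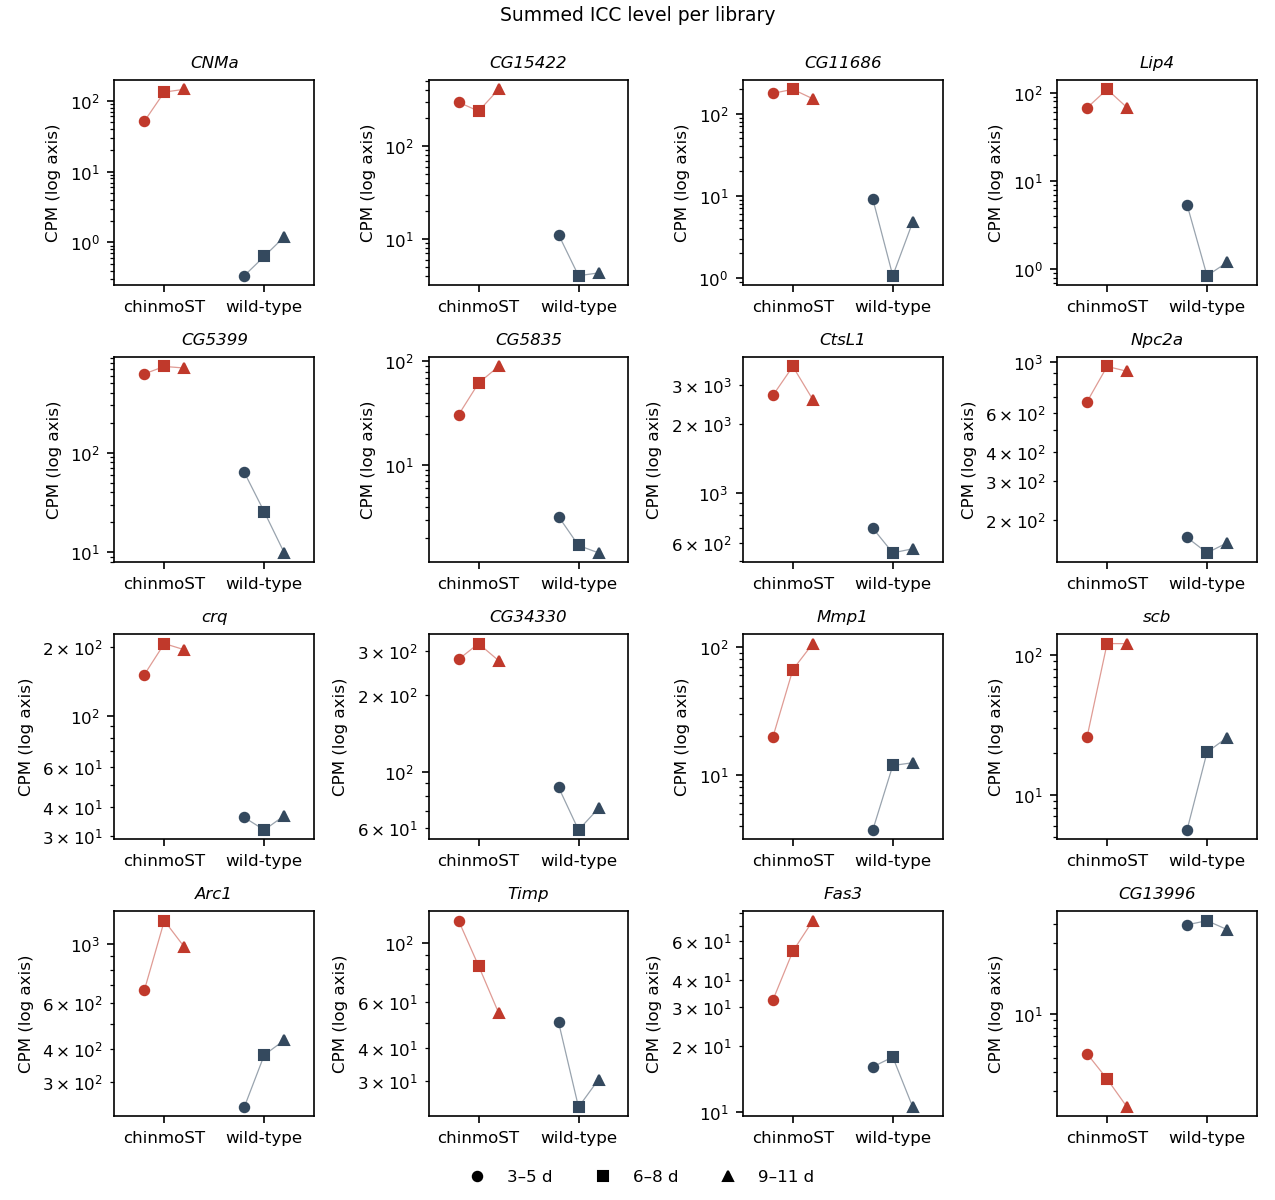
Summed ICC level of 16 genes in CPM on a log axis, with chinmoST (red) left of wild-type (dark blue) and 1 symbol per age. For each of the 15 genes from CNMa to Fas3 every chinmoST library lies above every wild-type library, and for CG13996 every one lies below. Of all 9184 genes tested, 15.5% do not overlap between the genotypes.

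With age added to the model, so that libraries of the same age were compared, many more genes separated the genotypes, with more of them lower than higher in the mutant. A gene is called below where its adjusted p in this fit was under 0.05. Of the 9184 genes tested, 1804 (19.6%) were called, 734 (7.99%) higher and 1070 (11.7%) lower in chinmoST ICCs. The 12 abundant genes with the largest increase were CNMa, CG15422, CG11686, Lip4, CG5399, CG5835, CG44250, CG3348, CG13321, Drs, Tsp42Ed and Mmp1. Lip4, a lipase gene, measured 67.8, 109.7 and 68.0 CPM in chinmoST ICCs, against 5.42, 0.848 and 1.20 CPM in wild-type ICCs (log2 fold change 4.98, SE 0.84, adjusted p = 0.000111). CG5399 measured 624, 742 and 715 CPM in chinmoST ICCs, against 63.7, 25.4 and 9.84 CPM in wild-type ICCs (log2 fold change 4.64, SE 0.82, adjusted p = 0.000111). The SE is that of the 3 differences between libraries of an age. CG11686 measured 178, 199 and 152 CPM in chinmoST ICCs, against 9.14, 1.06 and 4.80 CPM in wild-type ICCs, and CG5835 30.7, 61.9 and 89.5 CPM in chinmoST ICCs, against 3.22, 1.70 and 1.44 CPM in wild-type ICCs. Drs, which encodes the antifungal peptide drosomycin, measured 170.5, 3.31 and 11.7 CPM in chinmoST ICCs, against 13.7, 1.70 and 0.720 CPM in wild-type ICCs, highest at 3–5 d in both genotypes. The count was 7 with no age block, as given above, 156 without the wild-type 6–8 d library, 563 without the chinmoST 6–8 d library, and 231 of 7820 tested genes without the deep ICCs, of which 157 (2.01%) were higher and 74 (0.946%) lower. Of these 231 genes 215 were also called with the deep cells in, and of 1643 genes called with them that could be tested without them, 1633 kept their direction.

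The genes that fell were mostly genes with higher levels in male germ cells. Of the 1070 called lower, 895 (83.6%) were over 4 times higher in late spermatocytes than in late cyst cells, against 7 of the 734 called higher and 27.9% of all genes tested. Mst77F, a chromatin protein of the sperm head, measured 1514, 1022 and 639 CPM in chinmoST ICCs, against 3012, 1515 and 1026 CPM in wild-type ICCs (log2 fold change -0.75, SE 0.13, adjusted p = 0.00379), lower in the mutant at each age although the libraries overlap across ages. ProtA, a protamine, measured 408, 199 and 151 CPM in chinmoST ICCs, against 924, 334 and 208 CPM in wild-type ICCs (log2 fold change -0.80, SE 0.21, adjusted p = 0.00567). Of 13 spermatid markers 5 fell and none rose, with a median log2 fold change of -0.57 against 0.03 over all genes tested. All 13 are among the 2564 tested genes over 4 times higher in late spermatocytes, of which 895 were called lower. Their count is thus near that of such genes in general. Without the deep ICCs none of the 13 was called (median -0.35). Of 10 spermatocyte markers none was called, with a median of -0.04. Of the genes over 4 times higher in late spermatocytes, the 1353 that reach 100 CPM there made up 13.9, 7.88 and 6.90% of ICC UMIs in chinmoST testes and 22.3, 13.4 and 8.76% in wild-type testes. Late cyst cells held 8.98, 6.32 and 6.14% in chinmoST and 14.1, 9.55 and 5.24% in wild-type, and early cyst cells 4.35, 2.94 and 2.13% against 8.87, 6.67 and 4.67%. RNA set free by other cells gives UMIs in any droplet, and its part in these lower values was not tested. With the germline-high genes left out before scaling, 828 of 6632 genes were called, 491 higher and 337 lower.

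**Figure D3:**
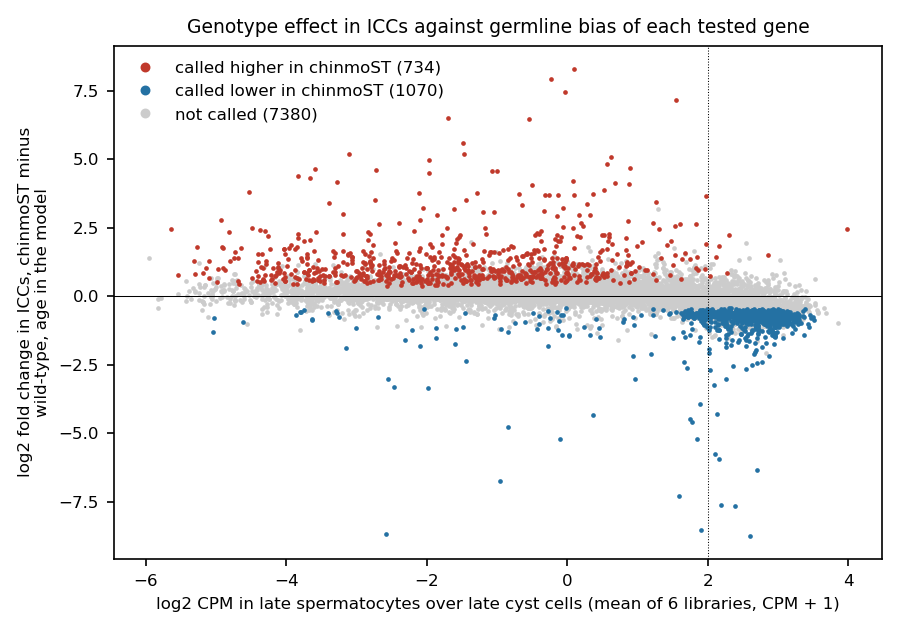
Each dot is 1 of the 9184 tested genes, with its log2 level in late spermatocytes over late cyst cells on the x axis and its log2 fold change in ICCs, chinmoST minus wild-type, on the y axis. Of the 1070 genes called lower (blue), 895 lie right of the dotted line at 4-fold, where 7 of the 734 genes called higher (red) lie.

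The genes that fell also include genes without a germline bias. glob1, a globin, measured 221, 176 and 172 CPM in chinmoST ICCs, against 483, 396 and 443 CPM in wild-type ICCs (log2 fold change -1.22, SE 0.07, adjusted p = 0.000623). It is also a marker of pigment cells, whose other marker here, CG2233, measured 7.90, 1.80 and 3.73 CPM in chinmoST ICCs, against 4.57, 0.424 and 0 CPM in wild-type ICCs, and the part of pigment cell RNA in the decrease was not tested. Spn43Aa, among the genes that marked wild-type ICCs, measured 138, 65.8 and 40.1 CPM in chinmoST ICCs, against 224, 196 and 233 CPM in wild-type ICCs (log2 fold change -1.54, SE 0.52, adjusted p = 0.00780). GstE5, a glutathione transferase, measured 40.4, 15.6 and 31.2 CPM in chinmoST ICCs, against 105, 96.7 and 107 CPM in wild-type ICCs, and serp (serpentine), a chitin deacetylase, measured 23.2, 16.8 and 21.4 CPM in chinmoST ICCs, against 42.5, 57.9 and 74.4 CPM in wild-type ICCs. The groups did not overlap for any of these 4 genes, nor for 15.5% of all genes tested.

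The UMIs of the genes with the largest increase sat in a minority of the mutant ICCs. A CG15422 UMI was seen in 17.1, 14.2 and 10.8% of chinmoST ICCs, against 2.15, 2.82 and 1.28% of wild-type ICCs, and in 1.93, 1.82 and 3.2% and 0.683, 0.308 and 0.144% of the late spermatocytes of these libraries, a cell type that should lack a cyst cell product. In late cyst cells the shares were 3.67, 5.07 and 3.88% in chinmoST and 2.94, 4.51 and 5.84% in wild-type. With every cell thinned to 2105 UMIs and shallower cells left out, the shares of ICCs were 15.5, 13.0 and 12.1% in chinmoST and 1.39, 0.960 and 0.729% in wild-type. CNMa was seen in 3.86, 4.5 and 3.81% of chinmoST ICCs and 0.119, 0.377 and 0.183% of wild-type ICCs, and its share in late spermatocytes was 1.93, 0.842 and 1.69% and 1.14, 1.13 and 0.289%. The 10 cells richest in CNMa held 83.3, 97.7 and 99.4% of its UMIs in the chinmoST libraries, and for CG15422 the 10 richest held 58.3, 72.6 and 88.6%. At 6–8 d only 84 of the 441 CNMa UMIs of chinmoST ICCs were in cluster 16 and 0 in cluster 17, so the rest lay in the 2 other ICCs with a CNMa UMI, which belong to other clusters. Pooled over libraries, CNMa measured 118 CPM in chinmoST and 3.85 CPM in wild-type hub cells, and CG15422 366 and 15.4 CPM. In late cyst cells CNMa was at most 0.819 CPM in any library.

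Several other rising genes were seen mostly in the same cells. Cells of cluster 16 in chinmoST with at least 2105 UMIs were divided by whether they held a CG15422 UMI, a division chosen after the values were seen and given with no test. There were 84, 44 and 26 cells with one and 163, 125 and 93 without. A CG11686 UMI was present in 72.6, 72.7 and 61.5% of cells with a CG15422 UMI and 7.36, 6.40 and 5.38% of cells without. For CG5399 the shares were 61.9, 77.3 and 76.9% against 10.4, 12.8 and 7.53%, and for Lip4 51.2, 59.1 and 42.3% against 3.68, 2.40 and 3.23%. Ssk, a protein of smooth septate junctions, was present in 75.0, 70.5 and 69.2% against 14.7, 8.00 and 10.8%, and CNMa in 31.0, 22.7 and 38.5% against 0.613, 2.40 and 0%. For the cyst cell gene Six4 the shares overlapped, at 63.1, 50.0 and 61.5% against 66.3, 60.0 and 49.5%. Those for eya were 20.2, 43.2 and 23.1% against 17.2, 51.2 and 46.2%. In CPM Six4 measured 303, 146 and 251 against 326, 245 and 258, and eya 26.9, 99.6 and 22.9 against 32.1, 113 and 124. Both were thus lower in CPM at each age in the cells with a CG15422 UMI. For Pdcd4, so and sog the direction changed between ages. Cells with a CG15422 UMI were also deeper, with medians of 4903, 7838 and 7973.5 UMIs against 4224, 5471 and 4779, and the part of depth in these shares was not tested. Wild-type cluster 16 held only 16, 13 and 6 cells with a CG15422 UMI at that minimum. A CG5399 UMI was present in 31.25, 0 and 33.3% of these and 7.06, 5.14 and 0.943% of wild-type cells without. For CG11686 the wild-type shares were 25.0, 0 and 0% against 2.51, 0.685 and 2.36%. Those for Lip4 were 18.75, 0 and 0% against 0.911, 0.342 and 0.472%, and for Ssk 43.75, 23.1 and 50.0% against 15.3, 14.4 and 9.91%. A CG5399 UMI was also seen in 22.5, 28.6 and 18.9% of chinmoST and 17.2, 19.3 and 14.6% of wild-type late cyst cells. For CG11686 these late cyst cell shares were 14.8, 23.0 and 14.1% and 5.55, 8.52 and 10.7%, and for Lip4 4.12, 5.07 and 2.43% and 3.67, 2.51 and 1.36%. For Ssk they were 2.64, 2.53 and 2.43% and 5.87, 9.90 and 7.39%.

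**Figure D4:**
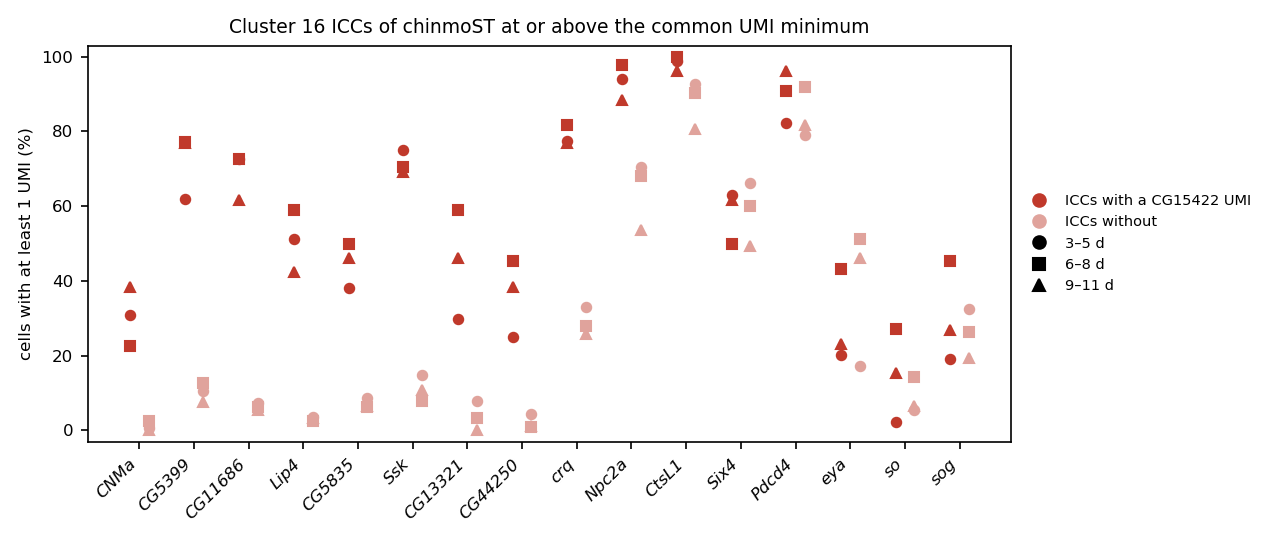
Share of chinmoST cluster 16 ICCs of at least 2105 UMIs with a UMI of each named gene, for cells with a CG15422 UMI (dark red) left of cells without one (pale red), 1 symbol per age. CNMa, CG5399, CG11686, Lip4 and Ssk are found in 22.7 to 77.3% of cells with a CG15422 UMI and in 0 to 14.7% of cells without. The shares for Six4 run from 49.5 to 66.3% over both, and those for eya from 17.2 to 51.2%.

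Several matrix and integrin genes rose in the mutant ICCs. Of 18 tested members 8 rose and none fell, with a median log2 fold change of 0.47 against 0.03 over all genes tested. Of all genes tested 7.99% were called higher and 11.7% lower. Mmp1, a matrix metalloproteinase, measured 19.7, 66.4 and 106 CPM in chinmoST ICCs, against 3.72, 11.9 and 12.5 CPM in wild-type ICCs (log2 fold change 2.67, SE 0.23, adjusted p = 8.64e-05). Its relative Mmp2 was scarce, at 3.48, 6.61 and 12.6 CPM in chinmoST ICCs, against 0.169, 0.424 and 0.240 CPM in wild-type ICCs (log2 fold change 4.5, SE 0.40, adjusted p = 0.000857). Timp, the inhibitor of these proteases, measured 122, 82.1 and 54.5 CPM in chinmoST ICCs, against 50.3, 24.0 and 30.5 CPM in wild-type ICCs (log2 fold change 1.31, SE 0.27, adjusted p = 0.00255). Proteases and inhibitor rose together, and in chinmoST Mmp1 was highest at 9–11 d and Timp at 3–5 d. scb, an integrin alpha subunit, measured 26.0, 121 and 121 CPM in chinmoST ICCs, against 5.59, 20.1 and 25.7 CPM in wild-type ICCs (log2 fold change 2.35, SE 0.13, adjusted p = 7.67e-05), and mys, an integrin beta subunit, 22.8, 155 and 183 CPM in chinmoST ICCs, against 11.2, 62.3 and 68.1 CPM in wild-type ICCs (log2 fold change 1.27, SE 0.12, adjusted p = 0.000671). The libraries of scb did not overlap between genotypes, while those of mys did across ages. Without the deep ICCs 3 of 15 members tested were called, all higher, and mys was not (adjusted p = 0.0719). Of all genes tested without these cells 2.01% were called higher and 0.946% lower.

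Several lysosomal and scavenger genes also rose. Where 7.99% of all genes tested were called higher and 11.7% lower, 7 of 20 lysosomal genes rose and none fell (median 0.34). Of 12 genes for scavenging and lipid uptake 5 rose and none fell (median 0.22). CtsL1, Npc2a and crq, given above, led these lists with log2 fold changes of 2.29, 2.42 and 2.39. A few cells carried much of these transcripts. The 10 richest ICCs held 37.1, 61.1 and 79.8% of Npc2a UMIs in chinmoST and 16.9, 18.1 and 25.2% in wild-type testes, and at 9–11 d in chinmoST 66.9% of CtsL1 and 76.7% of crq UMIs. In the division of cluster 16 by CG15422, Npc2a measured 2177, 3492 and 2914 CPM in chinmoST cells with a CG15422 UMI and 408, 252 and 235 CPM in chinmoST cells without, against 231, 203 and 246 CPM in wild-type cells without. The 16, 13 and 6 wild-type cells with a CG15422 UMI measured 908, 283 and 614 CPM. CtsF, the protease cathepsin F, measured 201, 191 and 207 CPM in chinmoST ICCs, against 91.9, 81.2 and 85.2 CPM in wild-type ICCs (log2 fold change 1.22, SE 0.04, adjusted p = 0.000461). emp, a scavenger receptor of the same family as crq, measured 271, 246 and 234 CPM in chinmoST ICCs, against 184, 155 and 146 CPM in wild-type ICCs (log2 fold change 0.64, SE 0.04, adjusted p = 0.00911), and bmm (brummer), a lipase of fat droplets, measured 56.4, 66.1 and 63.9 CPM in chinmoST ICCs, against 35.4, 42.2 and 38.4 CPM in wild-type ICCs (log2 fold change 0.69, SE 0.03, adjusted p = 0.0139). The chinmoST libraries lay above the wild-type ones for each of these genes, while 15.5% of all genes tested did not overlap in either direction. The lysosomal list summed to 9331, 10567 and 8921 CPM in chinmoST ICCs and 5356, 4865 and 5509 CPM in wild-type ICCs. Of 26 Rab and Rab-related genes 10 rose, with Rab7 of late endosomes at 275, 241 and 302 CPM in chinmoST ICCs, against 152, 127 and 136 CPM in wild-type ICCs (log2 fold change 0.98, SE 0.09, adjusted p = 0.00130), and 1 fell. The one that fell was Rab3-GAP, whose transcript is germline-biased. Without the deep ICCs 5 of 20 lysosomal, 2 of 10 scavenger and 1 of 25 Rab genes were called, all higher. The share of all genes called higher without these cells was 2.01%.

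Several genes of the actin cytoskeleton and of cell junctions rose as well. The counts here stand beside 7.99% of all genes tested called higher and 11.7% called lower. Of 23 actin cytoskeleton genes 10 rose and 1 fell (median 0.55). chic (profilin) measured 2439, 2374 and 2399.8 CPM in chinmoST ICCs, against 1282, 1657 and 1806 CPM in wild-type ICCs (log2 fold change 0.62, SE 0.16, adjusted p = 0.0179), and the actin gene Act42A measured 3277, 2442 and 2477 CPM in chinmoST ICCs, against 1941, 1555 and 1648 CPM in wild-type ICCs (log2 fold change 0.67, SE 0.05, adjusted p = 0.00660). Rac2 measured 153, 214 and 265 CPM in chinmoST ICCs, against 58.2, 90.3 and 107 CPM in wild-type ICCs (log2 fold change 1.31, SE 0.04, adjusted p = 0.000397). Moe (moesin), which ties actin to the membrane, measured 178, 299 and 339 CPM in chinmoST ICCs, against 86.2, 144 and 179.7 CPM in wild-type ICCs (log2 fold change 1.01, SE 0.05, adjusted p = 0.00137). Of 25 septate junction genes 7 rose and 1 fell (median 0.19). The adhesion molecule Nrg (neuroglian) had a log2 fold change of 1.02 (adjusted p = 0.00177), the scaffold gene vari 1.01 (adjusted p = 0.00729) and the sodium pump beta subunit nrv1 1.54 (adjusted p = 0.00314). Without the deep ICCs 2 of the 23 actin genes rose and none fell, and of the septate junction genes none rose and 1 fell. The shares of all genes called without these cells were 2.01% higher and 0.946% lower.

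**Figure D5:**
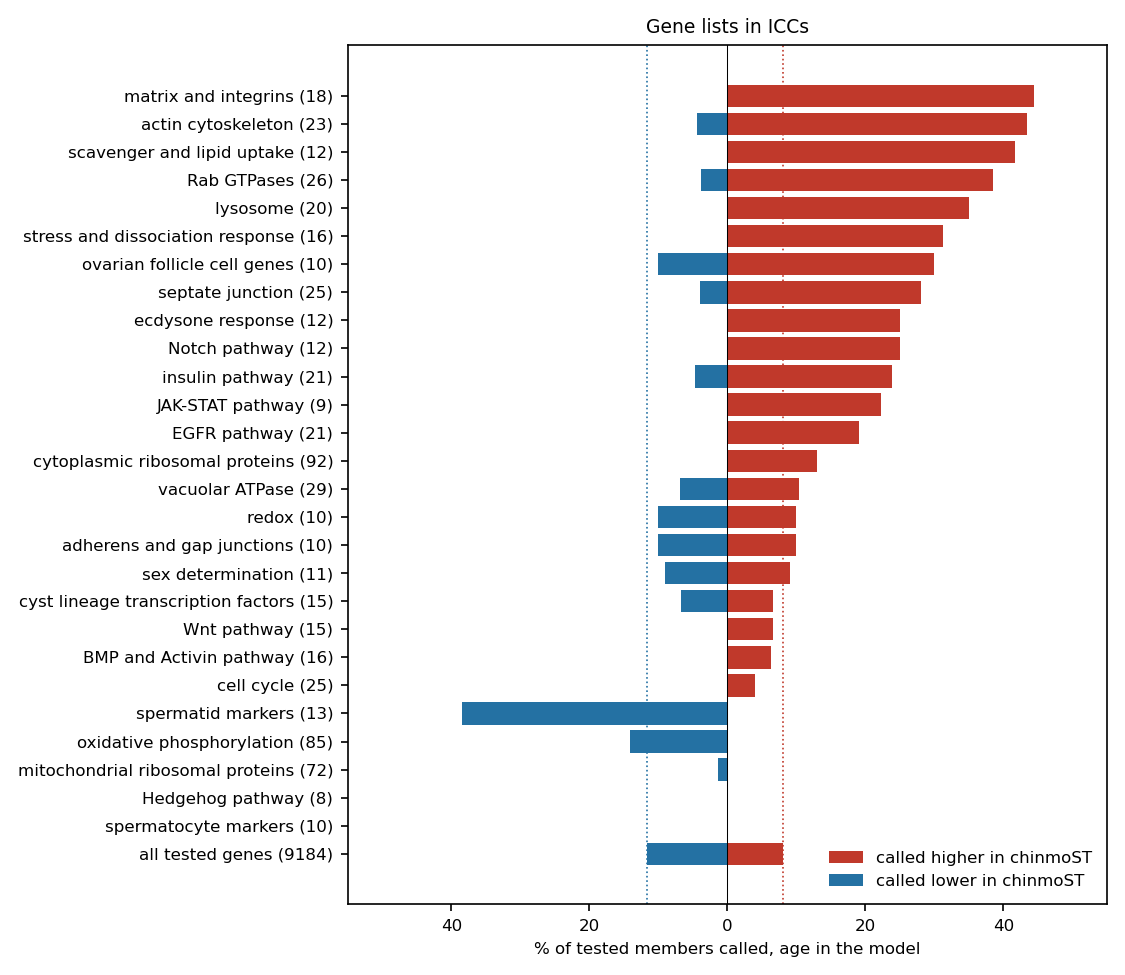
Share of the tested members of each gene list called higher (red, right) or lower (blue, left) in chinmoST ICCs with age in the model, for lists of at least 8 tested members, whose number is in brackets. The list of genes that the study itself named in mutant cyst cells of these libraries is left out. Its members Mmp1, Timp, chic and Rab7 remain in the matrix, actin and Rab lists. Dotted lines mark the shares over all 9184 genes, 7.99% higher and 11.7% lower, and the matrix, actin, scavenger, Rab and lysosome lists have the longest of the bars drawn to the right.

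In each signalling pathway examined a minority of the members was called, where 7.99% of all genes tested were called higher and 11.7% lower. Of 21 insulin pathway genes 5 rose and 1 fell (median 0.40). Ilp6, an insulin-like ligand, measured 174, 268 and 296 CPM in chinmoST ICCs, against 128, 213 and 200.3 CPM in wild-type ICCs (log2 fold change 0.45, SE 0.07, adjusted p = 0.0380), and its receptor InR 41.6, 124 and 102.5 CPM in chinmoST ICCs, against 23.2, 64.9 and 73.6 CPM in wild-type ICCs (log2 fold change 0.75, SE 0.14, adjusted p = 0.0124). Thor, a translation repressor under insulin and TOR control, measured 206, 189 and 128 CPM in chinmoST ICCs, against 106, 70.2 and 76.3 CPM in wild-type ICCs (log2 fold change 1.05, SE 0.20, adjusted p = 0.00314), and S6k and Pi3K92E also rose (log2 fold change 0.56, adjusted p = 0.0297 and log2 fold change 0.90, adjusted p = 0.0322). ImpL2, which binds insulin-like peptides, measured 25.1, 57.7 and 31.2 CPM in chinmoST ICCs, against 19.5, 37.7 and 30.2 CPM in wild-type ICCs and was not called (log2 fold change 0.36, adjusted p = 0.231). None of Ilp6, InR and Thor was called without the deep ICCs (adjusted p = 0.357, 0.137 and 0.597). Of 21 EGFR pathway genes 4 rose and none fell (median 0.23). The 4 were the GTPase Ras85D, the kinase rl, the repressor aop and the ligand protease rho, with log2 fold changes of 0.58, 0.57, 0.65 and 1.77. Of 9 JAK-STAT genes 2 rose, 1 being the feedback inhibitor Socs36E (log2 fold change 1.53, adjusted p = 0.0180), while Stat92E was not called (log2 fold change 0.31, adjusted p = 0.240). Of 12 Notch pathway genes 3 rose, namely aph-1, kuz and fng. Of 16 BMP and Activin genes only the ligand myo was called (log2 fold change 0.64, adjusted p = 0.0496), of 15 Wnt genes 1 rose and none of 8 Hedgehog genes was called. The BMP and Activin, Wnt and Hedgehog lists thus did not exceed the share of all genes called higher. Without the deep ICCs no member of the insulin (16 tested), EGFR (17), JAK-STAT (8), Notch (11), BMP and Activin (16) or Wnt (12) lists was called. With them in, the medians of the last 5 lists lay between 0.02 and 0.26.

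Hormone-response and stress genes had several members higher in the mutant. Over all genes tested 7.99% were called higher and 11.7% lower. Of 12 ecdysone response genes 3 rose and none fell (median 0.43). Eip74EF, an Ets factor induced by ecdysone, measured 8.36, 9.02 and 18.2 CPM in chinmoST ICCs, against 1.86, 1.48 and 1.44 CPM in wild-type ICCs (log2 fold change 2.76, SE 0.39, adjusted p = 0.00137). Eip93F, a transcription factor of late ecdysone responses, measured 60.4, 366 and 276 CPM in chinmoST ICCs, against 40.3, 163 and 204 CPM in wild-type ICCs (log2 fold change 0.73, SE 0.22, adjusted p = 0.0145), and its log2 fold change was -0.10 without the deep ICCs. Of 16 genes of stress and tissue dissociation 5 rose and none fell (median 0.43). They include kay, the fly Fos, at 16.3, 81.2 and 76.0 CPM in chinmoST ICCs, against 7.62, 25.7 and 27.1 CPM in wild-type ICCs (log2 fold change 1.43, SE 0.17, adjusted p = 0.00104), puc, a phosphatase induced by JNK signalling, at 10.9, 25.0 and 38.7 CPM in chinmoST ICCs, against 7.28, 3.39 and 3.84 CPM in wild-type ICCs (log2 fold change 2.18, SE 0.81, adjusted p = 0.00823), and stv (starvin), a co-chaperone, at 59.7, 118 and 122 CPM in chinmoST ICCs, against 34.0, 46.9 and 45.1 CPM in wild-type ICCs (log2 fold change 1.19, SE 0.19, adjusted p = 0.00118). Such genes are known to respond to cell dissociation, and its part in the other results was not tested. Without the deep ICCs 1 of the 15 tested stress genes and none of the 10 tested ecdysone genes was called. The share of all genes called higher was then 2.01%.

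The mutated gene was not called in ICCs, and of 11 sex determination genes 1 rose and 1 fell, shares near those of all genes (7.99% higher and 11.7% lower). chinmo measured 12.3, 24.4 and 35.9 CPM in chinmoST ICCs, against 15.9, 26.1 and 16.8 CPM in wild-type ICCs, and the groups overlapped (log2 fold change 0.20, SE 0.44, adjusted p = 0.630). The lesion in chinmoST is not known, so this level is no check of the labels. In CySCs the pooled level of chinmo was 26.3 CPM in chinmoST and 536 CPM in wild-type. dsx, the switch gene of somatic sex, measured 2.09, 6.61 and 6.06 CPM in chinmoST ICCs, against 2.20, 7.84 and 8.16 CPM in wild-type ICCs and was not called (log2 fold change -0.28, adjusted p = 0.603), and neither was tra, its splicing regulator (log2 fold change -0.48, adjusted p = 0.410). fru, another target of the sex pathway, fell to 11.1, 13.2 and 10.3 CPM in chinmoST ICCs, against 14.4, 28.2 and 24.9 CPM in wild-type ICCs (log2 fold change -0.89, SE 0.26, adjusted p = 0.0337). Sxl, the female master regulator, measured 5.11, 19.5 and 18.6 CPM in chinmoST ICCs, against 2.54, 7.42 and 10.6 CPM in wild-type ICCs (log2 fold change 1.07, SE 0.16, adjusted p = 0.0215), a total that does not show which splice form was made. Of 38 ovarian follicle cell genes, 12 had no UMI in the ICCs of any library and only 10 passed the filter and were tested. Of these 10, 3 rose and 1 fell (median 0.13). Without the deep ICCs 7 were tested, of which 1 was higher and 1 lower (median -0.003). Of all genes, 2.01% were then called higher and 0.946% lower. Fas3, an adhesion molecule of follicle and hub cells, measured 32.3, 53.8 and 74.1 CPM in chinmoST ICCs, against 16.1, 17.8 and 10.6 CPM in wild-type ICCs (log2 fold change 1.77, SE 0.52, adjusted p = 0.00314), and mirr, a homeodomain factor of the follicle epithelium, 18.1, 42.4 and 46.1 CPM in chinmoST ICCs, against 4.06, 13.6 and 16.6 CPM in wild-type ICCs (log2 fold change 1.71, SE 0.18, adjusted p = 0.00116). pip, a sulfotransferase of ventral follicle cells, fell (log2 fold change -1.53, adjusted p = 0.00391) and is germline-biased in these testes. Of 9 genes that the study itself named in mutant cyst cells of these libraries, 6 rose and 1 fell, a count that is not independent evidence. mamo, a zinc-finger factor, was among those that rose (log2 fold change 0.79, adjusted p = 0.0214), while alphaTub85E and CG4250 were not called. Sod1, named in the genotype label, measured 462, 481 and 446 CPM in chinmoST ICCs, against 562, 587 and 572 CPM in wild-type ICCs, with no overlap but no call (log2 fold change -0.31, adjusted p = 0.115).

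Housekeeping groups moved by small amounts, and the counts below stand beside 7.99% of all genes tested called higher and 11.7% called lower. Of 92 cytoplasmic ribosomal protein genes 12 rose and none fell, with a median of 0.15. Of 85 oxidative phosphorylation genes none rose and 12 fell (median -0.15), and all 12 were among the 21 members over 4 times higher in late spermatocytes than in late cyst cells. The leading ones, COX5BL, COX7CL, COX4L and UQCR-11L, are testis paralogs of subunits (log2 fold change -0.80, adjusted p = 0.00950 for COX5BL). Without the deep ICCs none of the 84 oxidative phosphorylation genes tested was called. Of 72 mitochondrial ribosomal protein genes 1 fell, of 29 vacuolar ATPase genes 3 rose and 2 fell, of 10 redox genes 1 rose and 1 fell, and of 25 cell cycle genes PCNA alone rose (log2 fold change 1.43, adjusted p = 0.0103). X-linked genes made up 149 of the 734 genes called higher (20.3%) and 90 of the 1070 called lower (8.41%), against 16.2% of the genes tested.

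The effect of genotype was then compared between ICCs and late cyst cells of the same libraries, and for 157 genes it differed. For 129 of 9721 tested genes (1.33%) it was more positive in ICCs and for 28 (0.288%) more negative (edgeR, term of cell type by genotype with the library as block). All 6 genes that rose with the ages as replicates were among the 129. The effect for CNMa was 6.73 log2 units larger in ICCs, for CG15422 4.37, for CG34330 2.11, for crq 1.85, for Npc2a 1.75 and for CtsL1 1.58. Arc1, which encodes a capsid-forming RNA carrier of retroviral origin, ran in opposite directions. It measured 669, 1229 and 976 CPM in chinmoST ICCs, against 241, 379.9 and 432 CPM in wild-type ICCs, but 398, 800.4 and 610.4 CPM in chinmoST and 548, 1278 and 1498 CPM in wild-type late cyst cells. Its effect was 1.45 in ICCs and -0.82 in late cyst cells, a difference of 2.21 (adjusted p = 1.76e-05), while the late cyst cell value alone was not called (adjusted p = 0.0520). The decrease of CG13996 was shared, at -4.92 in late cyst cells (adjusted p = 8.67e-06), with no difference called (adjusted p = 0.346). Timp rose in both types (0.89 in late cyst cells, adjusted p = 0.0446), and so did Mmp1 (1.89, adjusted p = 0.00136). The count ran from 64 without the wild-type 9–11 d library to 358 without the chinmoST 3–5 d library and was 94 and 86 without the chinmoST or the wild-type library of 6–8 d. It was 0 with no library block, where 225 genes had an unadjusted p below 0.05, and 67 without the deep cells.

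Against late spermatocytes, germ cells of the same libraries, the effect of genotype differed for 25 of 9931 tested genes, of which 22 (0.222%) were more positive and 3 (0.0302%) more negative in ICCs. CNMa, CG5399, CG5835 and Tsp42Ed were among the 22, with differences of 6.05, 3.31, 4.80 and 2.88 log2 units. CtsL1, Npc2a and crq were not (adjusted p = 0.570, 0.582 and 0.716). The count depended on single libraries, from 6 without the wild-type 6–8 d library to 107 without the wild-type 3–5 d library, with 53 without the chinmoST 3–5 d library and 9, 8 and 13 without the chinmoST 6–8 d, the chinmoST 9–11 d and the wild-type 9–11 d library. It was 3 with no library block. The balance of directions turned in some alternatives, with 88 of 110 more negative without the deep cells, 533 of 636 without 3–5 d, and 60 of 107 without the wild-type 3–5 d library.

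The levels of the named genes differed between clusters 16 and 17. As the authors clustered the cells on these genes, mutant cells high in them can be placed in cluster 16 for that reason, so the counts and differences by cluster are descriptions and no independent test. With the ages as replicates 35 of 8292 genes (0.422%) were called in cluster 16, 33 of them higher, and 0 of 7164 (0.0%) in cluster 17, where 303 had an unadjusted p below 0.05 (edgeR). With age in the model 595 genes (7.18%) were higher and 540 (6.51%) lower in chinmoST cells of cluster 16, and 250 (3.49%) higher and 1037 (14.5%) lower in those of cluster 17. A fit of the difference, added after the data were seen, called 74 of 8411 genes (0.88%), 63 with the more positive effect in cluster 16. Npc2a measured 1075, 1207 and 1016 CPM in chinmoST and 256, 208 and 253 CPM in wild-type cells of cluster 16, but 69.5, 35.9 and 41.6 and 66.1, 50.9 and 55.8 CPM in cluster 17 (difference 2.42 log2 units). crq measured 224, 217 and 218 against 41.9, 32.0 and 42.3 CPM in cluster 16 and 35.1, 31.7 and 19.3 against 29.3, 29.1 and 30.03 CPM in cluster 17 (difference 2.48 log2 units). For CtsL1, CG34330, Arc1, Mmp1, Lip4 and CG5399 the differences were 1.59, 2.42, 1.41, 2.32, 4.39 and 5.08 log2 units. CG15422 measured 497, 316 and 636 CPM in chinmoST and 20.5, 6.33 and 7.74 CPM in wild-type cells of cluster 16 and at most 0.835 CPM in any library of cluster 17. glob1 and CG13996 were lower in chinmoST cells of both clusters. The 74 became 24 and 22 without the wild-type library of 6–8 d or of 9–11 d, 36 and 45 without the chinmoST library of 6–8 d or of 9–11 d, 175 without the wild-type 3–5 d library, and 0 with no library block. The count of 35 in cluster 16 became 0 without the chinmoST 6–8 d, the wild-type 6–8 d or the wild-type 9–11 d library, 6 and 8 without the chinmoST library of 3–5 d or of 9–11 d, 88 without the wild-type 3–5 d library and 0 without the deep ICCs.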

How the data were processed

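UMI counts per gene and cell of 6 libraries, each from about 100 pairs of testes, were used as deposited. According to the labels and methods, the authors made these counts with Cell Ranger 4.0.0 on dm6 and clustered the cells in Seurat 3.2.2 after filtering cells on the number of genes detected. The deposited table of cells also gives the mitochondrial percent of each cell, which the authors computed and kept below 10, and its cluster and cell type. Of 31832 barcodes 26549 have a row there. Of 17612 genes 17537 were matched to a symbol. No doublet caller was run. The labels give 1 library per genotype and age, so p-values measure the spread between these libraries.

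ICC counts were summed per library and tested with edgeR 4.0.16 (quasi-likelihood, TMM scaling, filterByExpr, Benjamini-Hochberg threshold 0.05) in R 4.3.3, with DESeq2 1.42.0 as an alternative, without and with age as a block. Differences between cell types or clusters were tested as an interaction with the library as block. The SE is that of log2 CPM with a prior count of 2 and without TMM scaling. It is not the standard error of the edgeR fold change printed beside it, and for genes of few UMIs it can understate the uncertainty. Libraries were paired by the labelled age. Deviations from the genotype means correlated at 0.804, 0.543 and 0.599 between libraries of the same age. The crossed pairs of 6–8 d and 9–11 d reached 0.591 and 0.508, so the values set 3–5 d apart from the later ages and do not tell these 2 apart. Shares and cell measures were compared with exact two-sided permutation tests over libraries, in Python 3.11.15 with scipy 1.17.1. Simulated counts over 9184 genes with known changes gave back 0% of log2 changes of 1 and of 2 without age and 68% and 98% with age. They held no age effect and no shift of single libraries, and each used the dispersion of the fit it was tested with. These shares therefore do not tell how well either fit works on the real libraries. Barcodes shared by libraries numbered 255 between those of 3–5 d, 83 and 93 between the 6–8 d and 9–11 d libraries of chinmoST and of wild-type, and at most 10 otherwise. They covered at most 6 ICCs of a library.

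Members and 43 gene lists were chosen with earlier results of these data known. Named genes were 25 fixed genes, up to 15 called without age, the 12 genes most increased and the 12 most decreased with age (at least 50 CPM, 1 sign at all ages), up to 4 per list by smallest p, and the 15 genes highest in wild-type ICCs over other cyst types (at least 100 CPM). A few further list members are named as examples, chosen after their values were seen.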

Additional observations from a re-analysis of the deposited data

Results flagged for a closer look

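These results were picked out because the effect of genotype differed between cell types or clusters of the same libraries in a fit of the difference itself. It differed between ICCs and late cyst cells for 157 genes, between ICCs and late spermatocytes for 25 genes, and between clusters 16 and 17 for 74 genes, a count that is no independent test because the cells were clustered on these genes. Among the named genes, the effect in ICCs minus that in late cyst cells was 6.73 log2 units for CNMa, 4.37 for CG15422, 2.21 for Arc1, 2.11 for CG34330, 1.85 for crq, 1.75 for Npc2a and 1.58 for CtsL1. The effect of Arc1 in late cyst cells was of the opposite sign but not called by itself.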

How the results depend on the processing

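Which genes were called depended on age and on single libraries. The 7 genes called with the ages as replicates became 1804 with age as the replicate block, 242 with DESeq2, 1028 without both 3–5 d libraries, 4 within clusters 16 and 17 alone, and 0 with the common UMI minimum (817 at an unadjusted p below 0.05) or without the deep ICCs (526), and 0 to 22 with 1 library left out. The 1804 called with age became 7 with no block, 231 without the deep ICCs, 828 without germline-high genes, and 156 to 2316 with 1 library left out. DESeq2 gave 1424 and RLE scaling 2057. For ICCs against late cyst cells, the 157 became 0 with no library block, 379 with no filter, 349 without 3–5 d, 67 without deep cells, and 64 to 358 with 1 library left out. RLE scaling gave 204. For late spermatocytes the 25 became 3, 73, 636 and 110 under these 4 alternatives, 6 to 107 with 1 library left out. In cluster 16 the 35 became 1135 with the age block, 612 without 3–5 d, 0 without the deep ICCs and 0 to 88 with 1 library left out. In cluster 17 the 0 became 1287, 144 without 3–5 d, and 0 to 2. The 74 genes that differed between clusters became 354 without 3–5 d, 0 with no library block, and 22 to 175. The cause was not tested in any of these. The ICC share of hub cells, CySCs, early cyst cells and ICCs differed by -8.39 percentage points with the common UMI minimum and by -7.40 to -5.07 with 1 library left out. The difference in median UMIs reversed to 604 with that minimum (-1892 to -1311 with 1 library left out), and that in median genes became -29.5 (-515 to -344.5). The mitochondrial difference stayed at 0.443 to 0.837 percentage points. Eip93F reversed to -0.10 without the deep ICCs. Of 2662 values of the 171 named genes with age, 2174 kept direction and call, 448 lost the call, 39 gained it and 1 reversed. Genes of a few CPM, such as CNMa in wild-type ICCs, rest on single UMIs, and their fold changes depend on the prior count.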

Other observations

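Of 5 CySC markers tested in ICCs, 2 rose and none fell with age in the model, where 7.99% of all genes tested were called higher. zfh1, a zinc-finger factor of CySCs, measured 1.39, 16.5 and 9.79 CPM in chinmoST ICCs, against 0.846, 4.03 and 2.16 CPM in wild-type ICCs (edgeR, log2 fold change 1.82, adjusted p = 0.0107). Socs36E, the other, is a JAK-STAT inhibitor that is high in CySCs. Both genes are scarce in ICCs, and CySCs in these libraries were themselves few, with 26, 33 and 31 cells in chinmoST and 9, 4 and 7 in wild-type testes. Without the deep ICCs only 2 of the 5 markers could be tested, and neither was called.

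Among 10 genes of adherens and gap junctions, 1 rose and 1 fell, shares near those of all genes (7.99% higher and 11.7% lower). Without the deep ICCs none of the 9 tested was called in edgeR. shg (E-cadherin) measured 15.3, 43.9 and 37.8 CPM in chinmoST ICCs, against 7.62, 26.1 and 27.8 CPM in wild-type ICCs (edgeR, log2 fold change 0.71, adjusted p = 0.0369), with overlap across ages. CadN (N-cadherin) fell (edgeR, log2 fold change -1.65, adjusted p = 0.029) and is over 4 times higher in late spermatocytes than in late cyst cells. MtnA, a metallothionein and the most abundant gonad epithelium marker in ICCs, was not called (edgeR, log2 fold change 0.08, adjusted p = 0.825).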
